A study of Mus musculus with 2 samples.

Results

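The proteasome subunits described here are 37 genes of the 32285 in the count tables, picked by symbol with earlier results of these data known. They are the 7 alpha subunits (Psma1 to Psma7), 4 structural beta subunits (Psmb1 to Psmb4), the 3 constitutive catalytic beta subunits (Psmb5, Psmb6 and Psmb7), the 3 immunoproteasome subunits (Psmb8, Psmb9 and Psmb10), 6 regulatory ATPases (Psmc1 to Psmc6), 11 regulatory subunits without ATPase activity (Psmd1, Psmd2, Psmd3, Psmd4, Psmd6, Psmd7, Psmd8, Psmd11, Psmd12, Psmd13 and Psmd14), and the activator genes Psme1, Psme2 and Psme3. Live spleen cells of C57BL/6 mice made anaemic in 1 of 2 ways were profiled by single-cell RNA sequencing, with 1 library for each treatment. In the PHZ library the mice had received PHZ every 3 days over 1 month, and in the bleeding library they had been bled on the same schedule. PHZ is the usual abbreviation of phenylhydrazine, a compound that lyses red cells. The number, age and sex of the mice behind each library were not given, and untreated mice were not analysed here, so every difference between the treatments is a difference between 2 libraries, with no replicate and no test.

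The proteasome degrades proteins tagged with ubiquitin. Its core is a barrel of alpha and beta rings, in which Psmb5, Psmb6 and Psmb7 carry the chymotrypsin-like, caspase-like and trypsin-like active sites, and a regulatory cap of ATPases and other subunits binds, unfolds and feeds in the substrates. Interferon and the lymphoid lineage are known for Psmb8, Psmb9 and Psmb10, which take the places of Psmb5, Psmb6 and Psmb7 and change the peptides made for MHC class I; Psme1 and Psme2 encode the cytoplasmic activator of the same system, and Psme3 a nuclear activator that acts without ubiquitin or ATP. Erythroid cells are known to depend on the ubiquitin and proteasome system while they clear organelles and proteins on the way to the red cell.

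Because the levels of Psme3 and Psmd4 ran against those of Psmb6 and most other subunits along erythroid maturation, the 150 bases before the RefSeq start of these 3 genes are shown. Psme3 lies on the plus strand of chromosome 11 (promoter window chr11:101316063-101316212), Psmd4 on the minus strand of chromosome 3 (chr3:95042615-95042764) and Psmb6 on the plus strand of chromosome 11 (chr11:70525207-70525356), in RefSeq coordinates of GRCm38.p6. The sequences are written on the gene's strand, and capitals mark the matches to 5 motifs searched on both strands.
Psme3: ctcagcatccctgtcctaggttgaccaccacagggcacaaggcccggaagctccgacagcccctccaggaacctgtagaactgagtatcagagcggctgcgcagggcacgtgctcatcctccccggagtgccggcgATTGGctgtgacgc
Psmd4: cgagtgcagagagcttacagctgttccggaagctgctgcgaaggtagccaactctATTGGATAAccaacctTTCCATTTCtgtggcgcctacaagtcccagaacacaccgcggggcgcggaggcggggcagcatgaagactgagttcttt
Psmb6: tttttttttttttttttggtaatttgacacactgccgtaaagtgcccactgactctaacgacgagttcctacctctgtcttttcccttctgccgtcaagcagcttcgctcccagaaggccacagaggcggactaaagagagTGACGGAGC
In Psme3 the capitals are a CCAAT box on the other strand. In Psmd4 they are a CCAAT box on the other strand that overlaps a GATA element (GATAA), and an interferon regulatory factor element (GAAANNGAA) on the other strand. In Psmb6 they are an antioxidant response element (TGACNNNGC). Of the 37 genes, 31 had a RefSeq promoter, and 250 bases before the start were searched. CCAAT was in 12 of these 31 and in 33.8% of all 32851 promoters, GATAA in 6 of 31 against 22.6%, and TGACNNNGC in 4 of 31 (Psmb5, Psmb6, Psmc6 and Psmd12) against 10.2%. GAAANNGAA was in Psmb3 and Psmd4, against 7.13% of all promoters, and TTCNNNGAA, a STAT element, in Psmb8 alone, against 7.02%. A match describes these letters and is no evidence of a bound factor.

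After filtering, 6113 cells of the PHZ library and 8953 of the bleeding library remained, with a median of 12242 and 8045 UMIs (unique molecules counted). Clusters were named from marker genes and are called "-like". Erythroid-like cells numbered 3342 and 2424 (PHZ given before bleeding, here and below), B cell-like 1498 and 3507, T cell-like 544 and 2156, NK-like 64 and 159, neutrophil-like 294 and 111, monocyte or macrophage-like 171 and 283, dendritic-like 95 and 170, and plasma cell-like 8 and 95. The libraries shared 15 cell barcodes. Haemoglobin took 44.4% and 32.3% of the UMIs in cells, so levels are given as CPM, the UMIs of a gene scaled to a fixed total of the cell class without haemoglobin genes, and also as UMIs per cell. Each molecule gives 1 UMI at its 3′ end, so no scaling by gene length was made. Intervals are 95% and cover counting error only. Psma2 and Psmd1 overlap another coding gene on the same strand in GENCODE M21, and Psma4, Psmb7, Psmb9, Psmc3, Psmd1, Psmd13 and Psme1 overlap one on the other strand. Whether counting used the strand is not given in the sources used here, and Psme2 has a near-identical copy, Psme2b, so the counts of these genes are less certain.

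The first question was which catalytic subunits each cell type carried. Lymphoid and dendritic-like cells carried mainly immunoproteasome subunits, and erythroid-like cells mainly the constitutive ones. In B cell-like cells, Psmb8, Psmb9 and Psmb10 together held 67.8% (66.7 to 68.9) of the UMIs of the 6 catalytic genes after PHZ and 69.7% (69.1 to 70.4) after bleeding. In T cell-like cells the share was 74.2% and 73.1%, in NK-like cells 66.8% and 68.3%, and in dendritic-like cells 74.0% and 74.9%. Plasma cell-like cells had 68.0% (62.1 to 73.6) and 66% (64.3 to 67.7). These 5 classes all lay between 66% and 74.9%, and in T, NK, dendritic and plasma cell-like cells the intervals of the 2 libraries overlapped. Erythroid-like cells stood far below them at 8.55% (8.14 to 8.98) and 15% (14.2 to 15.8). That share was 4.53% and 26.7% with first-round cluster names, and 12.6% and 24.1% without doublet removal.

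**Figure D1:**
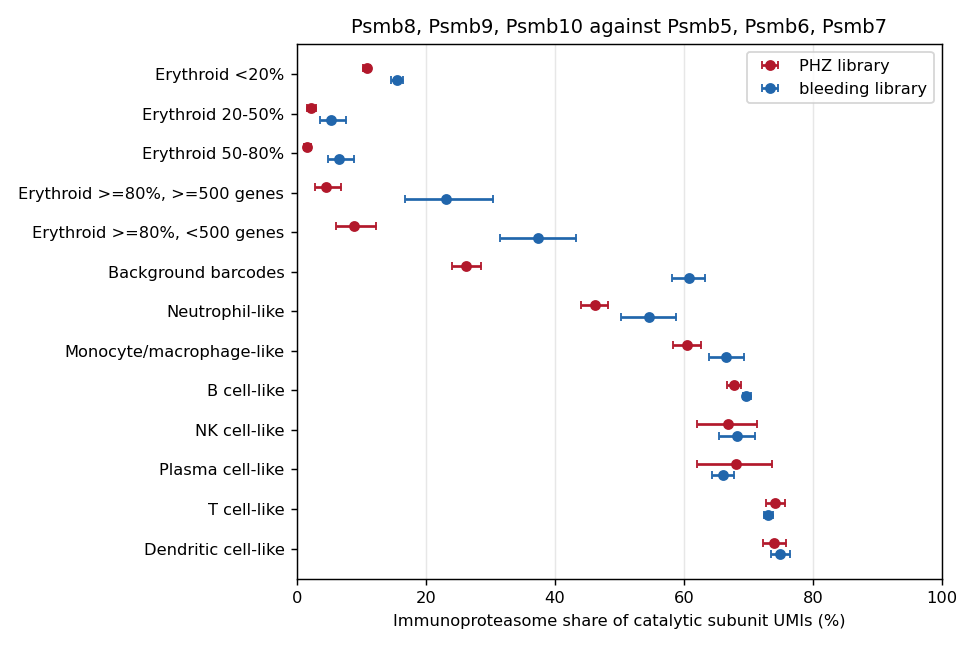
Share of the UMIs of the 6 catalytic subunits that came from Psmb8, Psmb9 and Psmb10 (x axis, percent) in each erythroid range, immune class and the background barcodes (y axis); points are the 2 libraries and bars are exact 95% intervals for counting error. Lymphoid and dendritic-like classes lie between 66% and 74.9%, and the erythroid ranges with under 80% haemoglobin lie at or under 15.5%.

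The 2 neutrophil-like clusters carried different catalytic sets. Cluster 21, led by the granule genes Camp, Ngp and Ltf, had an immunoproteasome share of 41.0% (38.8 to 43.3) and 48.3% (43.5 to 53.2), while cluster 20, led by Il1b, Csf3r and Cxcr2, had 73.1% (68.2 to 77.6) and 75.8% (67.3 to 83.0). The separation of the clusters was larger than that of the libraries within either of them, and it did not rest on the members, which were kept out of clustering. The sum of the 31 constitutive core and cap subunits was also higher in cluster 21, at 3015 and 2307 CPM against 1358 and 1436 CPM. Interferon-inducible genes led 1 small B cell-like cluster (cluster 26, Ifit3 first), and its immunoproteasome share, 74.2% and 75.3%, was close to that of the B cell-like cluster 12 (74.6% and 76.4%) and above the largest B cell-like cluster (68.7% and 69.3%). Cluster 28, which had no class name and was led by precursor B cell genes such as Rag1 and Vpreb1, had 52.7% in the PHZ library, and only 3 of 9 catalytic UMIs (33.3%) in the bleeding library.

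The balance within the 3 pairs was uneven. Psmb8 (chr17:34197721-34201454, plus strand) and Psmb9 (chr17:34181987-34187764, minus strand, overlapping Tap1) are neighbours in the MHC region, in GENCODE M21 coordinates of GRCm38, and Psmb10 lies on chromosome 8. Psmb8, which replaces Psmb5, stood at 292 and 314 CPM in B cell-like cells, against 91.0 and 88.3 CPM for Psmb5, and made up 76.2% and 78.1% of the UMIs of that pair. Psmb9 took 60.1% and 64.4% of its pair with Psmb6 there, and Psmb10 58.4% and 56.9% of its pair with Psmb7. T cell-like cells had the same order, with Psmb8 at 82.2% and 80.4%, Psmb9 at 67.4% and 67.5%, and Psmb10 at 61.6% and 62.1%. In dendritic-like cells Psmb8 reached 653 and 580 CPM, the highest of the classes, and Psmb9 336 and 373 CPM, but Psmb10, at 108 and 100 CPM, was only 49.1% and 48.3% of its pair. Neutrophil-like cells had the lowest Psmb10 of the immune classes, 29.5 and 18.7 CPM, and it made up 25.1% and 21% of the UMIs shared with Psmb7. NK-like cells carried 172 and 139 CPM of Psmb10, 68.8% and 64.4% of its pair. Of the 3 pairs, that of Psmb8 and Psmb5 was the most one-sided in B, T and dendritic-like cells.

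**Figure D2:**
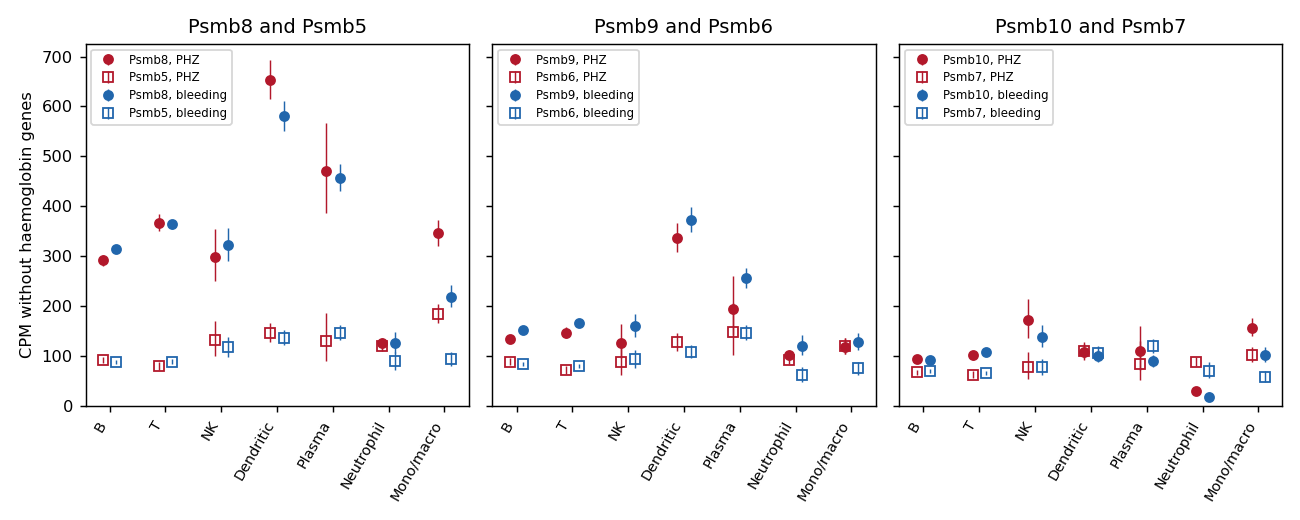
CPM of each immunoproteasome subunit and of the constitutive subunit it replaces (y axis), by immune class (x axis), for Psmb5 and Psmb8, Psmb6 and Psmb9, and Psmb7 and Psmb10, in both libraries. Psmb8 exceeds Psmb5 in B, T and dendritic-like cells of both libraries.

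Psme1 and Psme2, the activator subunits of the interferon-inducible system, followed the same classes. Psme1 was at 204 and 231 CPM in B cell-like, 286 and 290 CPM in T cell-like and 532 and 504 CPM in dendritic-like cells, and at 127 and 113 CPM in neutrophil-like cells. Psme2 was at 102 and 116, 176 and 183, and 324 and 257 CPM in B, T and dendritic-like cells. In the erythroid-like cells with the least haemoglobin Psme1 was at 91.0 and 103 CPM, below every immune class of the same library, and Psme2 at 70.7 and 90.4 CPM, near neutrophil-like cells (85.9 and 83.7 CPM). Psme3, the nuclear activator, had a different distribution: 37.1 and 30.7 CPM in B cell-like and 38.3 and 29.9 CPM in T cell-like cells, but 119 and 112 CPM in the same erythroid-like cells.

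The constitutive subunits were present in every immune class. Their summed level was 2644 and 2680 CPM in B, 2601 and 2720 CPM in T, 3189 and 3259 CPM in NK, 3655 and 3403 CPM in dendritic, and 3165 and 3918 CPM in plasma cell-like cells. It was 4104 and 2730 CPM in monocyte or macrophage-like and 2698 and 2110 CPM in neutrophil-like cells. The alpha subunits Psma3 (158 and 166 CPM) and Psma5 (76.8 and 80.9 CPM) were the highest and lowest of their ring in B cell-like cells. Psmb1, a structural beta subunit, was the highest constitutive subunit in B and T cell-like cells (210 and 223, 222 and 232 CPM), and Psmd3, a cap subunit, was the lowest (29.9 and 28.0, 33.7 and 29.8 CPM).

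Erythroid-like cells were next ordered by the share of their UMIs that came from haemoglobin, which uses no proteasome gene. The ranges were under 20% (435 and 216 cells), 20 to 50% (326 and 138), 50 to 80% (901 and 395), 80% or more with at least 500 genes (410 and 203), and 80% or more with under 500 genes (1270 and 1472). Within 5 points of the 20%, 50% and 80% limits lay 133 and 61, 155 and 72, and 310 and 194 cells, so the ranges are steps along a continuum. In the lowest range, cluster 13, led by Car1, gave 80.5% and 80.7% of the UMIs from 157 and 73 cells, and clusters 16 and 19, with few UMIs per cell, gave 2.80% and 2.95%, and 1.13% and 1.07%. Levels in that range are therefore mainly those of cluster 13. The mean cell held 32900 and 30878 UMIs without haemoglobin in the lowest range and 1275 and 1152 in the highest.

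With UMIs summed over cells, the erythroid-like cells with the least haemoglobin had the highest proteasome level of the spleen classes. The 31 constitutive subunits summed to 8066 and 7908 CPM there. All 31 were higher than in B cell-like cells of the same library, a comparison not made for all genes. The median ratio was 3.09 and 3.12, from 1.74 and 1.59 for Psmb1 to 6.18 and 5.92 for Psmd7, the partner of the deubiquitinase Psmd14 in the cap. The 7 alpha subunits lay between Psma6 (252 and 248 CPM) and Psma7 (513 and 488 CPM), and the 4 structural beta subunits between Psmb2 (271 and 279 CPM) and Psmb3 (412 and 399 CPM). Levels were even, with the highest constitutive subunit (Psma7) 3.97 and 3.74 times the lowest (Psmd3). The high level was not shared by all cells of the range. Members took 0.895% and 0.893% of UMIs without haemoglobin in cluster 13, and 0.351% and 0.362% in B cell-like cells. They took less over all cells of cluster 16 (0.289% and 0.276%) and cluster 19 (0.183% and 0.160%). These 2 clusters gave 111 and 58, and 84 and 46, of the 435 and 216 cells of the range.

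With more haemoglobin the constitutive subunits fell, and their levels drew apart. Their summed level was 8066 and 7908, 5517 and 4984, 4146 and 3592, 4230 and 2872, and 3129 and 2035 CPM in the 5 ranges. The median subunit fell from 8.01 and 7.24 UMIs per cell to 0.0677 and 0.0387. At every step 30 of the 31 had fewer UMIs per cell in both libraries, and the exception was Psmd4. All UMIs without haemoglobin also fell per cell, to 0.321 and 0.235, 0.162 and 0.150, 0.0735 and 0.0731, and 0.0388 and 0.0373 of the first range. On the CPM scale 15 (PHZ) and 23 (bleeding) of the 31 were lower at every step. How many of all genes fell at every step was not counted, so these counts are not read as particular to the subunits. The ratio of the highest to the lowest constitutive subunit grew from 3.97 and 3.74 through 5.63 and 4.91 and 20.1 and 20.6 to 105 and 176, with Psmd4 at the top and Psmd3 or Psmc1 at the bottom of the last range.

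Between the last and the first range the CPM of most genes fell, so the members were read against that background. A gene was called where the CPM ratio passed 1.5-fold, among genes with a mean of at least 10 CPM. In the PHZ library 36 of the 37 members passed that level, the exception being Psmb9; 29 were lower and 3 higher, where 85.0% of all genes tested were lower and 9.37% higher. In the bleeding library all 37 passed; 32 were lower and 2 higher, where 84.3% of all genes were lower and 9.53% higher. The members' shares, 80.6% and 86.5% lower and 8.33% and 5.41% higher, were near those of all genes. The median log2 ratio of the 31 constitutive subunits was −2.34 and −3.16 beside −3.09 and −2.94 for all genes. These CPM ratios depend on the scaling, and under a median-of-ratios scaling, which sets the typical gene near 0, the constitutive median was 0.74 and −0.24. It was −1.42 and −2.31 with each cell given equal weight, and −0.22 and −0.67 with first-round cluster names. These names leave out erythroid-like clusters 6, 8, 13 and 19. The first range then holds only clusters 11 and 16, which gave 0.351% and 0.423%, and 2.80% and 2.95%, of its UMIs.

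The constitutive core subunit that fell most was Psma7, of the alpha ring, from 513 and 488 to 35.2 and 21.2 CPM, a log2 ratio of −3.87 and −4.52. Psma1 went from 293 and 268 to 22.9 and 14.2 CPM, and Psmb3 from 412 and 399 to 40.8 and 36.6 CPM. In the last range Psma1 was the lowest of the alpha ring, level with Psma4 in the PHZ library. The 3 constitutive catalytic subunits fell less than Psma7, Psma1 and Psmb3. Their median log2 ratio, −2.25 and −3.16, was near that of all 31 constitutive subunits, −2.34 and −3.16. Psmb5 went from 281 and 305 to 53.1 and 34.2 CPM, Psmb6 from 244 and 233 to 51.3 and 24.2 CPM, and Psmb7 from 268 and 252 to 101 and 41.9 CPM. In each library Psmb7 was thus the highest of the 3 catalytic genes at the end, after Psmb5 had been the highest at the start.

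In the cap, the fall was steepest for Psmd7, from 380 and 384 to 17.3 and 13 CPM (ratio 0.0456 and 0.0338), and for Psmd1, a large scaffold subunit, from 213 and 229 to 10.5 and 6.49 CPM (ratio 0.0493 and 0.0284). Among the ATPases, Psmc1 fell most, from 140 and 131 to 13.6 and 4.72 CPM, and Psmc5 least, with a ratio of 0.475 and 0.283. Psmd2, the other large scaffold subunit, had a ratio of 0.755 (0.648 to 0.875) and 0.50 (0.415 to 0.599), far from that of Psmd1. The 2 scaffold subunits thus differed in how much of their mRNA remained relative to other genes.

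Psmd4 and Psme3 rose as a share of the remaining mRNA. Psmd4, a ubiquitin receptor of the cap, was at 227 and 234, 191 and 186, 247 and 234, 734 and 619, and 1039 and 831 CPM along the 5 ranges. Its ratio of last to first was 4.57 (4.31 to 4.85) after PHZ and 3.54 (3.30 to 3.81) after bleeding, which ranked it 302 of 6447 and 388 of 6692 genes. Psme3 was at 119 and 112, 235 and 269, 561 and 601, 1115 and 1156, and 1352 and 1475 CPM, a rise at every step in both libraries. Its ratio was 11.3 (10.6 to 12.1) and 13.1 (12.1 to 14.2), rank 139 and 146. As a share of all UMIs with haemoglobin, the log2 ratio was −1.35 and −1.75 for Psmd4, and −0.04 and 0.14 for Psme3. Psmd4 is the gene whose promoter window above holds 3 motif matches, and Psme3 the one with a CCAAT box 14 bases before its start. CCAAT was also found before Psma7 and Psmc1, which fell. A link between the motifs and the levels was not tested.

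**Figure D3:**
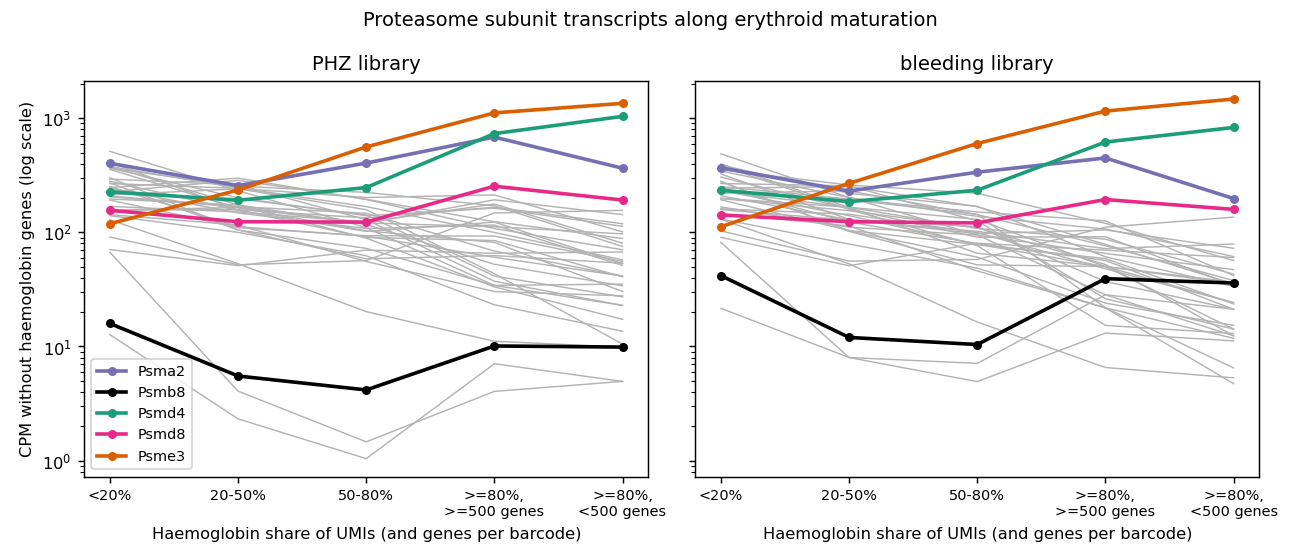
CPM without haemoglobin genes (y axis, log scale) of the members along the 5 erythroid ranges (x axis), 1 panel for each library, with Psme3, Psmd4 and Psma2 drawn in colour. Psme3 climbs from 119 and 112 to 1352 and 1475 CPM while most subunits fall.

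Per cell, both genes were lower in the last range than in the first, though not at every step. Psme3 went from 3.92 and 3.47 to 2.48 and 1.95, 2.99 and 2.78, 2.70 and 2.61, and 1.72 and 1.70 UMIs per cell, a fall of 2.28-fold and 2.04-fold from first to last. Psmd4 went from 7.48 and 7.24 to 2.02 and 1.35, 1.32 and 1.09, 1.77 and 1.40, and 1.32 and 0.957 UMIs per cell, a fall of 5.64-fold and 7.56-fold from first to last. These are means per cell, and in the first range they rest mainly on cluster 13. Mean UMIs without haemoglobin fell to 0.0388 and 0.0373 of their first value, while the median cell went from 4881 and 3540 to 1242 and 1103. A UMI of Psme3 was present in 68.7% and 66.2% of cells in the first range, 91.1% and 88.6% at 50 to 80% haemoglobin, and 79.0% and 79.7% in the last, against 19.2% and 17.1% of B cell-like cells. Of all members' UMIs in the last range, Psme3 held 28.6% (27.6 to 29.6) and 39.2% (38.0 to 40.4), and Psmd4 22.0% and 22.1%. In the first range their shares were 1.41% and 1.35%, and 2.69% and 2.81%. These 2 genes thus held most of the UMIs of the 37 members in the last range, by a narrow margin in the PHZ library.

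**Figure D4:**
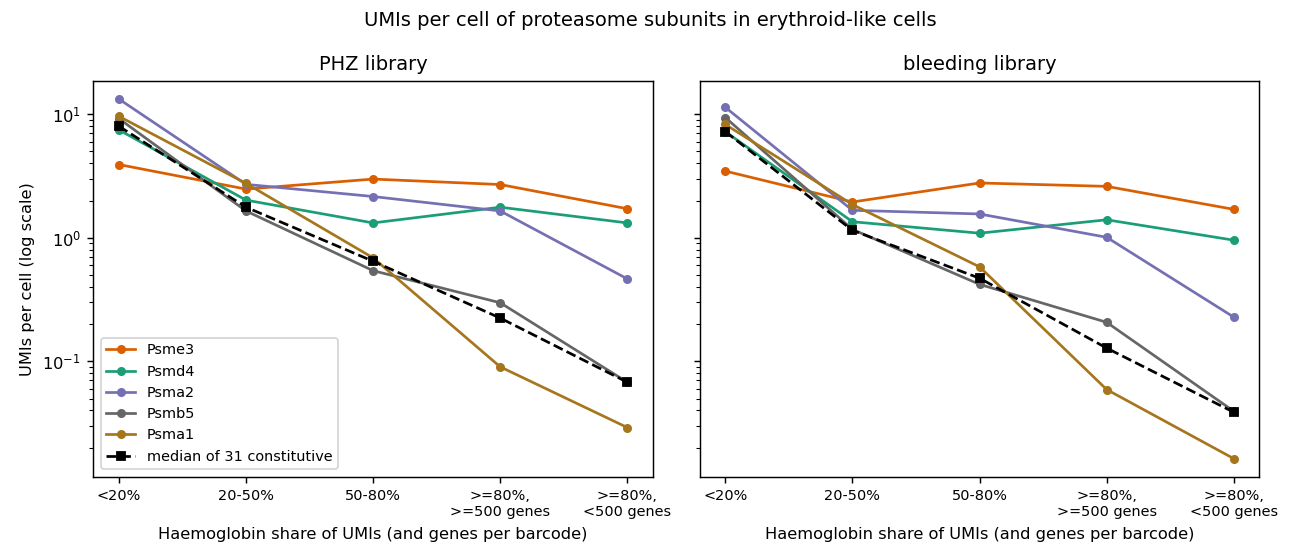
UMIs per cell (y axis, log scale) of Psme3, Psmd4, Psma2, Psmb5 and Psma1 and the median of the 31 constitutive subunits along the 5 erythroid ranges (x axis), 1 panel for each library. Psme3 stays between 1.70 and 3.92 UMIs per cell while the median constitutive subunit falls from 8.01 and 7.24 to 0.0677 and 0.0387.

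Psma2 and Psmd8 were intermediate. Psma2, an alpha subunit, was at 403 and 368, 257 and 230, 405 and 337, 684 and 449, and 365 and 198 CPM, so that it peaked in the range with 80% or more haemoglobin and at least 500 genes. Its log2 ratio of last to first, −0.14 and −0.90, turned with the processing: it was 0.51 (PHZ) with each cell given equal weight, 2.93 and 2.02 by median-of-ratios, and 2.41 and 2.01 with first-round cluster names. In UMIs per cell it fell from 13.3 and 11.4 to 0.465 and 0.228. Its counts carry the overlap on the same strand given above, with the gene AW209491. Psmd8, singled out after its values were seen, was at 156 and 142 CPM in the first range and 192 and 159 CPM in the last, a ratio of 1.23 (1.09 to 1.39) and 1.12 (0.975 to 1.29). Psme1 had a ratio of 1.71 (1.49 to 1.96) and 1.31 (1.12 to 1.52) over the same span and Psme2 0.952 and 0.666. The background barcodes held 91.0 and 181 CPM of Psme1, near its level in late cells (156 and 136 CPM), and the part of free RNA in that result was not tested.

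Genes that work with the proteasome were counted in 4 lists. Of 8 assembly chaperones, 7 were lower and 1 higher in both libraries between the first and the last range. The higher one was Psmd10, with a ratio of 1.68 and 1.54, from 43.3 and 45.3 to 72.9 and 69.6 CPM, while Pomp, which guides the maturation of the core, went from 301 and 312 to 85.2 and 34.2 CPM. Psmg1 and Psmg3, chaperones of the alpha ring, held 3 and 5, and 2 and 4 UMIs in the last range. Of 10 accessory and alternative proteasome genes 8 passed the minimum level, and 6 and 7 of these were lower and none higher. Sem1 and Usp14, the most abundant of that list in the first range, went from 348 and 320 to 162 and 101 CPM and from 158 and 170 to 69.8 and 67.8 CPM, and Psmf1, an inhibitor of the core, was at 78.2 and 70.8 CPM first and 92.0 and 98.5 CPM last. Of 5 regulators of proteasome genes, 4 and 5 passed and all of these were lower; Nfe2l2 went from 89.7 and 88.0 to 8.03 and 5.31 CPM, and Nfe2l1, the transcription factor known for proteasome recovery, from 27.0 and 30.4 to 5.56 and 2.95 CPM. Of 13 genes of MHC class I processing and loading, 7 and 8 passed, and 3 were lower and 1 higher in each library. B2m, the light chain of MHC class I, went from 377 and 452 to 458 and 404 CPM. Of all genes, 85.0% and 84.3% were lower, and 9.37% and 9.53% higher. The chaperone, accessory and regulator lists are too small for their shares to be read as different from these. In the MHC class I list a smaller share was lower, 3 of 7 and 3 of 8 genes, which is also a small list.

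Immunoproteasome subunits were scarce in the middle of erythroid maturation. Their share of catalytic UMIs was 10.8% (10.2 to 11.3) and 15.5% (14.6 to 16.4) in the first range, 2.13% and 5.33% in the second, and 1.59% (1.09 to 2.24) and 6.54% (4.73 to 8.77) in the third. In the last 2 ranges it was higher again, at 4.48% (2.79 to 6.76) and 23.1% (16.8 to 30.4), then 8.79% (6.09 to 12.2) and 37.3% (31.5 to 43.3). These late values rest on 21 of 469 and 37 of 160, and on 32 of 364 and 101 of 271 UMIs. The background barcodes, which hold free RNA, had 26.2% and 60.8%, and background was estimated to make up 12.3% and 17.9%, then 15.9% and 22.1%, of all UMIs in these ranges, against 1.53% and 1.63% in the first. All 23 B cell markers were detected in the last range of each library, and they summed to 296 and 908 CPM, with 79.4 and 136 CPM in the first range, 2762 and 8073 CPM in the background and 24659 and 23497 CPM in B cell-like cells. The part of background RNA in the late immunoproteasome share was not tested.

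In the first range Psmb10 was the main immunoproteasome subunit. It was at 67 and 81.7 CPM, with a UMI in 31.7% and 30.1% of cells. Psmb8 was at 15.9 and 41.8 CPM and Psmb9 at 12.7 and 21.6 CPM. For every 100 UMIs of Psmb10 there were 23.7 and 51.2 of Psmb8, where the background held 176 and 300 and B cell-like cells 308 and 339. Psmb10 then fell to 4.06 and 8.0 CPM at 20 to 50% haemoglobin and 4.94 and 11.2 CPM in the last range, where it held 8 and 19 UMIs.

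The 2 treatments were compared in each range and class as the ratio of PHZ to bleeding CPM. In the first erythroid range the constitutive subunits were alike in the 2 libraries, with a median log2 ratio of 0.02 beside −0.02 for all genes, and none of the 31 passed 1.5-fold. Among the 37 members none was higher, where 0.571% of all genes were, and 2 were lower, where 1.98% were. Both were immunoproteasome subunits. Psmb8 was at 15.9 CPM (PHZ) and 41.8 CPM (bleeding), a ratio of 0.379 (0.317 to 0.453), and Psmb9 at 12.7 and 21.6 CPM, a ratio of 0.589 (0.471 to 0.738). Psmb10 had a ratio of 0.82. A few cells carried much of Psmb8: the 3 highest held 31.7% of its UMIs in the PHZ and 47.0% in the bleeding library, and the log2 ratio, −1.40, was −1.06 without them. It was −0.47 where barcodes with at least 50 genes were admitted and −0.62 with a minimum of 500 UMIs. The 25 T cell markers summed to 12.7 CPM (4 at 0) and 65.7 CPM (none at 0) in the same cells, the 23 B cell markers to 79.4 and 136 CPM, and their part in the difference was not tested.

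In the later ranges the constitutive subunits were higher in the PHZ library. At 50 to 80% haemoglobin the median log2 ratio was 0.21 beside −0.02 for all genes. Of the 31, 30 had a ratio above 1, where 46.7% of all genes did. None of the 31 passed 1.5-fold, where 5.72% of all genes were higher and 5.63% lower. At 80% or more with at least 500 genes, 30 of the 31 passed the minimum level, with a median of 0.51 beside −0.14. Of these, 14 (46.7%) were higher and none lower, against 15.1% of all genes higher and 27.2% lower. In the last range 28 of the 31 passed, with a median of 0.77 beside 0.07; 21 (75.0%) were higher and none lower, against 19.0% higher and 16.5% lower of all genes. All 28 ratios in the last range were above 1, where 54.4% of all genes were. Of the markers of other cell types, the 24 of neutrophils were also higher in the PHZ library. They summed to 1231 (1 at 0) and 519 CPM (12 at 0) in the range with at least 500 genes, and 1467 and 782 CPM (2 at 0 in each) in the last. The 23 B cell markers were lower after PHZ, at 212 and 1051, then 296 and 908 CPM. So were the 25 T cell markers, at 55.5 and 288, then 74.7 and 368 CPM. The 29 monocyte or macrophage markers summed to 853 and 1034, then 1025 and 1118 CPM. The part of RNA from other cells in the difference was not tested.

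Among the constitutive roles, the regulatory ATPases had the highest median log2 ratio in the last range, 1.23 over the 5 that passed, and the lowest in the range before it, 0.47. Psmc2 was at 41.4 and 12.4 CPM, a ratio of 3.34 (2.02 to 5.74), Psmc3 at 88.3 and 37.8 CPM, a ratio of 2.34 (1.73 to 3.19), and Psmc4 at 27.8 and 11.8 CPM, 2.36 (1.36 to 4.21). Psmc6 and Psmc5 had ratios of 1.99 and 1.70. The catalytic subunits had a median of 1.08: Psmb7 was at 101 and 41.9 CPM (2.40, 1.81 to 3.22), Psmb6 at 51.3 and 24.2 CPM (2.12, 1.44 to 3.16) and Psmb5 at 53.1 and 34.2 CPM (1.55, 1.10 to 2.20). Psmb6 and Psmb7 were named by the size rule, and the interval of Psmb5 reached below it. Of the alpha ring (median 0.77), Psma2 stood at 365 and 198 CPM, 1.85 (1.61 to 2.12), Psma5 at 143 and 72.6 CPM, 1.97 (1.58 to 2.48), and Psma6 at 41.4 and 21.2 CPM, 1.95. Among the structural beta subunits (median 0.51) Psmb4 was at 113 and 61.4 CPM, 1.84 (1.44 to 2.37), while Psmb3 was at 40.8 and 36.6 CPM, 1.11 (0.776 to 1.60). Of the other cap subunits (median 0.59), Psmd6 and Psmd11, both PCI-domain subunits, had ratios of 2.36 (1.61 to 3.51) and 2.25 (1.70 to 3.01).

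The members that rose along maturation differed little. Psmd4 was at 1039 and 831 CPM in the last range, a log2 ratio of 0.32 (ratio interval 1.16 to 1.34). Psmd8 was at 192 and 159 CPM, a ratio of 1.21 (1.02 to 1.43), and Psme3 at 1352 and 1475 CPM, a ratio of 0.917 (0.865 to 0.971). Psmb8 went the other way, at 9.88 and 36.0 CPM, a ratio of 0.275 (0.148 to 0.482) from 16 and 61 UMIs. In the range before it, Psmc5 (2.70, 1.82 to 4.12), Psmb6 (2.31, 1.47 to 3.79), Psmd2 (2.31, 1.58 to 3.47) and Psma5 (1.84, 1.34 to 2.58) were among the higher members, and Psmb8 (0.257, 0.106 to 0.587) and Psmb9 (0.249, 0.0842 to 0.672) were lower. The background barcodes differed in the same directions. The constitutive subunits had a median log2 ratio of 0.72 there, and summed to 4683 and 2937 CPM. The 3 immunoproteasome subunits had a median log2 ratio of −1.40 there, and all 3 were lower after PHZ by more than 1.5-fold. After the estimated background was subtracted, the median log2 ratio of the last range was 1.13, against 0.77 before.

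**Figure D5:**
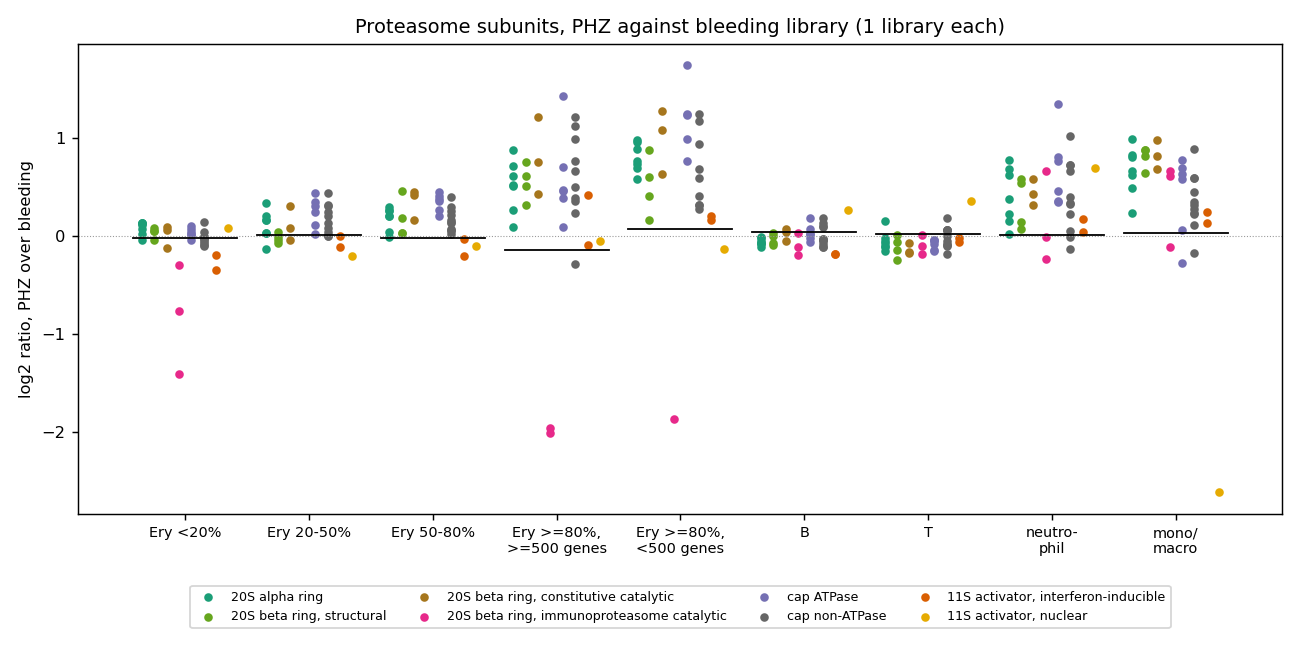
The log2 ratio of PHZ to bleeding CPM (y axis) of each member that passed 10 CPM, coloured by role, in the 5 erythroid ranges and 4 immune classes (x axis); black lines are the median of all genes tested. Members lie around 0 in B and T cell-like cells and in the first erythroid range, except Psmb8 and Psmb9, and constitutive subunits lie above the line in the last range.

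In lymphocytes the libraries were alike. None of the 37 members passed 1.5-fold in B cell-like cells, where 0.908% of all genes were higher and 0.484% lower, or in T cell-like cells, where 1.84% were higher and 0.389% lower. The median log2 ratio of the members was −0.03 in B and −0.06 in T cell-like cells, beside 0.04 and 0.02 for all genes. The ratio farthest from 1 was that of Psme3 in both, 1.21 and 1.28. The 4 lists of proteasome partners and MHC class I genes had no gene past 1.5-fold in either class.

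In neutrophil-like cells 12 of the 37 members (32.4%) were higher in the PHZ library and none lower, against 13.2% and 8.37% of all genes. The median log2 ratio of the members was 0.38 beside 0.01. Psmc1 was at 38.7 and 15.1 CPM, a ratio of 2.56 (1.55 to 4.50) from 155 and 17 UMIs, Psma4 at 88.9 and 51.7 CPM, 1.72 (1.30 to 2.31), Psmc6 at 73.2 and 41.9 CPM, 1.75, and Psmc3 at 79.2 and 46.3 CPM, 1.71. Psmb8 had 126 CPM in each library, Psmb9 102 and 120 CPM, and Psmb10 29.5 and 18.7 CPM (1.58, 0.985 to 2.64). The immunoproteasome share was 46.2% (44.1 to 48.3) and 54.6% (50.3 to 58.8). The granule-rich cluster 21, with the higher constitutive level, was 146 of 294 cells in the PHZ and 47 of 111 in the bleeding library. Within it the constitutive subunits summed to 3015 and 2307 CPM, and within cluster 20 to 1358 and 1436 CPM.

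In monocyte or macrophage-like cells 20 members (54.1%) were higher and 1 lower (2.70%), against 15.7% and 18.1% of all genes. Different clusters made up the class in the 2 libraries: cluster 17, led by Fn1 and Lyz2, was 154 and 71 cells, and cluster 15, led by Vcam1 and C1qa and with haemoglobin at a median of 45.8% of UMIs, was 17 and 212 cells. Over the class, Psma4 was at 187 and 94.3 CPM (1.99, 1.65 to 2.40), Psmb5 at 184 and 93.2 CPM (1.98, 1.64 to 2.39), Psma7 at 453 and 287 CPM (1.58, 1.41 to 1.76), Psmd8 at 175 and 94.9 CPM (1.85, 1.53 to 2.24) and Psmb8 at 346 and 219 CPM (1.58, 1.39 to 1.79). Within cluster 17 the levels were closer, with Psma7 at 452 and 530 CPM, Psmb5 at 180 and 165 CPM, Psma4 at 189 and 154 CPM and Psmb8 at 350 and 393 CPM. The sum of the constitutive subunits there was 4071 and 3840 CPM, against 4104 and 2730 CPM over the class. Psme3 was the lower member, at 43.2 and 265 CPM (0.163, 0.128 to 0.206). It was at 37.8 and 42.8 CPM in cluster 17 and at 304 and 428 CPM in cluster 15, which had 17 cells in the PHZ library. The 37 erythroid markers summed to 1925 and 18926 CPM over the class (1 at 0 in each library), and their part in the level of Psme3 was not tested.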

How the data were processed

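The labels' protocols name the Chromium 3′ v3.1 kit. Per the submitters' processing notes, reads were counted with Cell Ranger 7.0.0 on mm10, while the matrix headers name version 4; annotation and intron handling are not given in the sources used here. The deposited values are raw counts of UMIs per gene for every barcode, 128130213 (PHZ) and 145260780 (bleeding) in all. Cells had at least 1000 UMIs, 300 genes and at most 10% mitochondrial UMIs; Scrublet's top 0.8% per 1000 cells (332 and 754) were removed. Both libraries were clustered together without the members (scanpy 1.11.5, leidenalg 0.10.2, igraph 0.11.9, scikit-learn 1.9.0, 2000 variable genes, 30 components, 15 neighbours, resolution 1), giving 30 clusters. A cluster took a name with at least 3 markers among its 50 leading genes and no other class ahead among its first 10.

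Added after seeing the data were a repeated second naming round among unnamed clusters and the rules that leave haemoglobin-rich lymphoid, precursor B, germinal centre and CD3-bearing NK clusters unnamed. Members and lists were chosen with earlier results of these data known. Named singly are the 6 catalytic genes, Psme1 and Psme2, members past 1.5-fold whose nearer bound also passed 1.25-fold, and the highest and lowest of a role. UMIs were summed per class and library (Python 3.11.15, numpy 2.4.6, scipy 1.17.1, pandas 2.3.3, matplotlib 3.10.9); shares have Clopper-Pearson and ratios exact conditional binomial 95% intervals, for counting error. Background was estimated from barcodes of 10 to 100 UMIs. No test between treatments was made. Simulated counts were Poisson draws from the class totals, which is the counting error that the intervals assume. Coverage near 95% was therefore built in, and spread between cells or mice was not simulated. The intervals covered the true ratio for 95.4% of 7507 genes in the first erythroid range and 95.6% of 2932 genes in the last. In the first range the naming rule took 49.3% of genes changed 1.5-fold and 100% of those changed 2-fold. In the last range it took 29.9% and 65.7%. Alternatives are given in the closing section. A gene of the MHC class I list is not reported here.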

Additional observations from a re-analysis of the deposited data

Results flagged for a closer look

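The ratio of PHZ to bleeding for Psmb8 ran in opposite directions in 2 cell classes. In monocyte or macrophage-like cells it was 1.58 (1.39 to 1.79), from 346 and 219 CPM, and in erythroid-like cells with under 20% haemoglobin it was 0.379 (0.317 to 0.453), from 15.9 and 41.8 CPM. With 1 library for each treatment, the difference between the classes was not tested. Within monocyte-like cluster 17 Psmb8 was at 350 and 393 CPM.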

How the results depend on the processing

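Over 17 alternative settings for 40 results, 427 values stayed within the interval of the main value and 79 moved outside it. Another 12 turned, which means a changed sign of a log2 ratio whose main interval excluded 0. No paired analysis was possible because each treatment had 1 library, and for the same reason no library could be left out. The immunoproteasome share of all erythroid-like cells was 8.55% (PHZ) and 15% (bleeding). With a minimum of 500 UMIs it was 9.04% and 13.3%, with a minimum of 2000 UMIs 9.06% (PHZ), and without doublet removal 12.6% and 24.1%. Barcodes of at least 50 genes gave 9.75% and 16.5%, subtracting background 7.98% and 12.4%, and leaving out the 3 highest cells 7.71% and 12.8%. With first-round cluster names, which leave out erythroid-like clusters 6, 8, 13 and 19, it was 4.53% and 26.7%. In bleeding B cell-like cells, 69.7% became 70.9% when barcodes down to 50 genes were admitted, and 68.8% with first-round names. The median log2 ratio of PHZ to bleeding in the first erythroid range, 0.02, was 0.13 after scaling each cell to 1 total and 0.13 with first-round names. The median log2 ratio of the last to the first range, −2.34 and −3.16, was −5.88 and −6.73 per all UMIs with haemoglobin, −1.42 and −2.31 with each cell scaled, 0.74 and −0.24 by median-of-ratios, −2.95 and −4.08 after subtracting background, and −0.22 and −0.67 with first-round names. Per all UMIs, Psmd4 turned to −1.35 and −1.75, and in the PHZ library Psme3 to −0.04 and Psmd8 to −3.24. Psmd8 was −0.03 with barcodes of at least 50 genes. Psma2 turned to 0.51 (PHZ) with each cell scaled, 2.93 and 2.02 by median-of-ratios, and 2.41 and 2.01 with first-round names. The log2 ratio of Psmb10 between treatments in the first range was 0.03 with each cell scaled, against −0.29. Including haemoglobin and median-of-ratios change the denominator by construction; the cause of the other moves was not tested. The depth of the last range limits genes such as Psmb9, with 8 and 21 UMIs.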

Other observations

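Barcodes that fell outside the cell filter, with at least 1000 UMIs, 80% or more haemoglobin and under 300 genes, numbered 2539 (PHZ) and 2991 (bleeding). Psme3 was at 1103 and 1316 CPM and Psmd4 at 765 and 685 CPM in them, while the 31 constitutive subunits together summed to 1847 and 1426 CPM. The lowest constitutive subunit there was Psmc1 (8.46 CPM) in the PHZ and Psmd3 (7.60 CPM) in the bleeding library. The immunoproteasome share of their catalytic UMIs was 15.1% and 58.1%, beside 26.2% and 60.8% in the background barcodes. The part of background RNA in these shares was not tested.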
